A study of Mus musculus with 12 samples.

Results

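The 41 cell proliferation genes described here encode proteins that cells need to copy their DNA and to divide. They were chosen by gene symbol, as a readout of cell division in gliosis, and each of the 41 was found among the 45906 genes of the count table. By the role of their proteins they fall into 7 groups. The licensing group holds Mcm2 to Mcm7, 6 genes. The replication fork and the supply of nucleotides are represented by Pcna, Rrm1, Rrm2, Tyms and Tk1, the mitotic cyclins and kinases by Ccna2, Ccnb1, Ccnb2, Cdk1, Aurka, Plk1, Bub1, Bub1b and Melk. Cdc20, Ube2c and Cdca3 act in protein destruction during mitosis, and Aurkb, Birc5 and Cdca8 form most of the chromosomal passenger complex. Cenpe, Cenpf, Spc25, Esco2, Top2a and Mki67 act at kinetochores or on chromosomes. The spindle and the final cleavage of the cell are served by Kif11, Kif20a, Kif23, Kif2c, Kif4, Tpx2, Nusap1, Prc1 and Hmmr.

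RNA from the spinal cord of 12 mice was sequenced, with 3 mice in each of 4 genotypes at an age of 7 months. The genotypes were Plekhg5+/+, Plekhg5-/- (loss of Plekhg5, which encodes an exchange factor that activates Rab26 in the autophagy of synaptic vesicles), Plekhg5+/+ SOD1-G93A and Plekhg5-/- SOD1-G93A. SOD1-G93A stands for a human SOD1 transgene with a substitution found in familial amyotrophic lateral sclerosis (ALS), here from the low copy line with its slow disease course. The transgene carries its own human SOD1 promoter and is not limited to a cell type of the cord. RNA was taken from the tissue without sorting, so neurons, glia, vessels and blood were measured together.

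In adult spinal cord most cells have left the cell cycle. Progenitors of oligodendrocytes, microglia and, after injury, some astrocytes can still divide, and in SOD1-G93A mice microglia and astrocytes are known to become reactive and to increase in number. A cell that divides first loads MCM helicases onto its DNA, then copies the DNA with nucleotides made by ribonucleotide reductase, thymidylate synthase and thymidine kinase. Cdk1 with its cyclins next drives the cell into mitosis, where kinesins and passenger proteins move the chromosomes, until Cdc20 and Ube2c direct the destruction of the cyclins. Transcripts of the mitotic genes are made late in the cycle and are scarce in resting cells, while the licensing genes and Pcna are also transcribed outside of division.

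The libraries held 30415643 to 38743628 counts. Plekhg5 had 19.4 to 25 CPM (counts scaled to library size) in the 6 libraries with an intact gene and 3.28 to 4.72 CPM in the 6 Plekhg5-/- libraries. Human SOD1 had 4421 to 5638 CPM in the 6 libraries with the transgene and at most 5.47 CPM in the others, as the labels state. Motoneuron markers such as Chat and oligodendrocyte markers such as Mbp were detected in each library. All 3 Plekhg5+/+ libraries held Y-linked transcripts, as did 2 Plekhg5-/-, 2 Plekhg5+/+ SOD1-G93A and 1 Plekhg5-/- SOD1-G93A library. For the 41 genes, the first library of each SOD1-G93A genotype stood apart. The first Plekhg5+/+ SOD1-G93A library was the highest of its group in 41 of the 41 genes and the highest of all 12 libraries in 40, and the first Plekhg5-/- SOD1-G93A library was the highest of its group in 34. Counts and medians over the 41 genes are therefore also given without these libraries where they enter a comparison.

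Most of the genes hold known sequence elements in their promoters, and the promoters of the 6 genes with the smallest p-values in SOD1-G93A mice are shown because they hold elements known from mitotic and replication genes. Windows of 300 bases, 250 before and 50 after the transcription start, were available from RefSeq (GRCm38.p6) for 35 of the 41 genes. The cell cycle genes homology region, read here as TTTGAA or TTTAAA, is bound by complexes that repress mitotic genes in resting cells and activate them in dividing cells. The CCAAT box (CCAAT) is bound by NF-Y. E2F factors bind sites read here as TTTCCCGC, TTTCGCGC, TTTGGCGC or TTTGCCGC. Each motif was searched on both strands. The 150 bases before the start follow, 5′ to 3′ on the strand of the gene, with the motifs in capitals. They lie at chr13:100786487-100786636 (Ccnb1), chr1:128359706-128359855 (Mcm6), chr4:118437344-118437493 (Cdc20), chr10:69352913-69353062 (Cdk1), chr1:20820313-20820462 (Mcm3) and chr11:99024190-99024339 (Top2a), each on the minus strand.
Ccnb1: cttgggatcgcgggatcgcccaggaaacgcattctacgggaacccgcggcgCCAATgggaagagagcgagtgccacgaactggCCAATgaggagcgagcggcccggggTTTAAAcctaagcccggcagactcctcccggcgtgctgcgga
Mcm6: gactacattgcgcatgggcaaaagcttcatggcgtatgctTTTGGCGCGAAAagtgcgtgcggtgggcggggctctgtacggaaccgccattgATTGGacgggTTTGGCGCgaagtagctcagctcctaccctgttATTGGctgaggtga
Cdc20: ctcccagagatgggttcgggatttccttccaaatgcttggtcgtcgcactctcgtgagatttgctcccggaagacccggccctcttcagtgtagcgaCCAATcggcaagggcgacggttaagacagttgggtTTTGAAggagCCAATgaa
Cdk1: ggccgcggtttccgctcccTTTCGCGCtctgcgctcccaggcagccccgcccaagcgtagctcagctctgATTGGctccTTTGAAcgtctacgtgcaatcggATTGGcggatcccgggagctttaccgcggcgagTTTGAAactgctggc
Mcm3: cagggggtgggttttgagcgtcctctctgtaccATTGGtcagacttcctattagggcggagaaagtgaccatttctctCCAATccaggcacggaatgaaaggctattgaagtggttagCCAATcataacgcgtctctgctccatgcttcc
Top2a: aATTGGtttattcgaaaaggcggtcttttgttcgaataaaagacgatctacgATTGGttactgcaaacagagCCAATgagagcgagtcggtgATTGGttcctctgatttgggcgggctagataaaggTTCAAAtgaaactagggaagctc
In Mcm6, a pair of E2F sites overlap and print as a single run of capitals. In 32 of the 35 windows, bases after the start were found in the early part of an annotated transcript of the gene. Among the 6 shown those of Mcm6 were not. This checks the strand and the rough position, not the exact start. The last bases shown for Top2a lie within the gene as the count table places it, since its annotation holds an earlier start.

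Among the 25 mitotic genes with a window, 22 held the homology region (88.0%) and 21 a CCAAT box (84.0%), and 20 held both. These shares were 27.8% and 37.9% among the 27025 genes with a window, of which 10.9% held both. Of the 10 replication genes with a window, 4 held the homology region, 8 a CCAAT box and 4 an E2F site. The E2F sites were found in 2.32% of all promoters and, among the mitotic genes, only in Cdk1. Nusap1, Melk and Tyms held none of the motifs in their windows. These matches describe the letters of the windows, and no test was made on them.

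**Figure D1:**
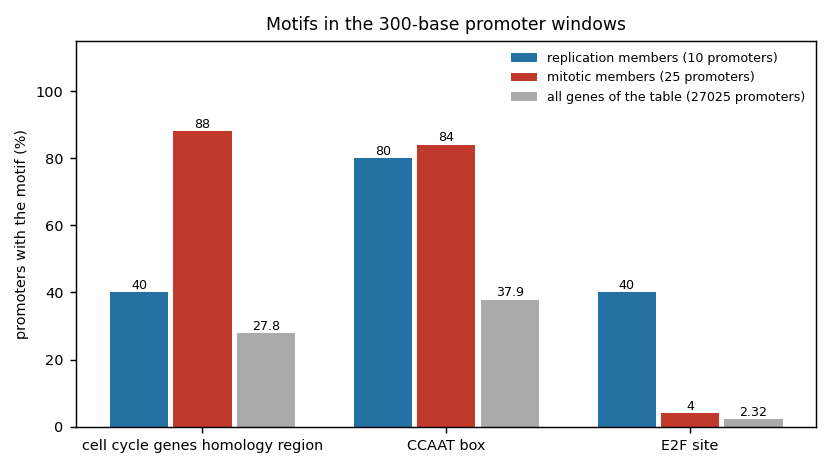
Share of promoter windows (%) that hold each of the 3 motifs, for the 10 replication genes, the 25 mitotic genes and all 27025 genes with a window. The mitotic genes held the homology region in 88.0% and E2F sites in 4.0% of their windows, the replication genes held each of these in 40%.

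The first comparison asks which proliferation genes differ with the transgene when Plekhg5 is intact. Each of the 41 genes had a higher estimate in Plekhg5+/+ SOD1-G93A than in Plekhg5+/+ mice, with a median log2 fold change of 1.06 and a range from 0.05 for Bub1b to 3.10 for Ccnb1. The median over the 20155 genes tested was close to 0 (−0.00099). Ccnb1, Mcm6, Cdc20, Cdk1 and Mcm3 rose at an adjusted p-value under 0.05 (edgeR's quasi-likelihood test), which makes 5 of 41, beside 2.47% of all genes tested. The count depended on the fit. DESeq2 called 15 of 41, beside 5.91% of the genes it tested, and 14 with a prior on fold changes, beside 5.88%. When only these 2 genotypes were fitted, 0 of 41 were called, beside 0.0154% of all genes tested. At an unadjusted p-value under 0.05, 30 of the 41 were higher, beside 10.6% of all genes tested. In 28 of the 41 each of the 3 Plekhg5+/+ SOD1-G93A libraries lay above each of the 3 Plekhg5+/+ libraries, which was the case for 11.6% of all genes. As RNA of unsorted tissue was measured, more dividing cells and more RNA per dividing cell cannot be told apart.

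These counts depended on single libraries. Without the first Plekhg5+/+ SOD1-G93A library, 1 gene (Ccnb1) remained called, beside 1.09% of all genes tested. In that fit 18 were higher at an unadjusted p-value under 0.05, 38 had a positive estimate, and the median log2 fold change was 0.51. Without the first or without the second Plekhg5+/+ library, 0 of the 41 were called, beside 0.0195% and 0.00976% of all genes tested. In these fits 30 and 27 of the 41 were higher at an unadjusted p-value under 0.05, with medians of 1.03 and 1.07. Without the third library 2 were called (Ccnb1 and Cdc20), beside 2.23%. Leaving out the second Plekhg5+/+ SOD1-G93A library gave 15 calls, beside 3.76% of all genes tested, and leaving out the third gave 10, beside 2.91%. Omission of libraries outside of the comparison also moved the count. It gave 3 calls without Plekhg5-/- replicate 2 or 3, beside 1.58% and 1.81% of all genes tested. Without replicate 1 it gave 5, beside 3.62%. There were 7, 2 and 4 calls without Plekhg5-/- SOD1-G93A replicates 1, 2 and 3 in turn, beside 1.9%, 1.53% and 1.77%. With both of the first SOD1-G93A libraries left out, an alternative chosen after the data were seen, 1 gene was called (Ccnb1), beside 0.972%. In that fit 20 were higher at an unadjusted p-value under 0.05 and the median was 0.51.

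The filter on low counts asked for 0.306 CPM in at least 3 libraries. Of the 41 genes, 36 reached this level in 3 or more of the 6 libraries without the transgene. The other 5 (Ccnb1, Bub1, Melk, Aurkb and Kif2c) were tested only because of their level in SOD1-G93A libraries. Among the 36, the median log2 fold change was 0.90 and 4 were called.

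**Figure D2:**
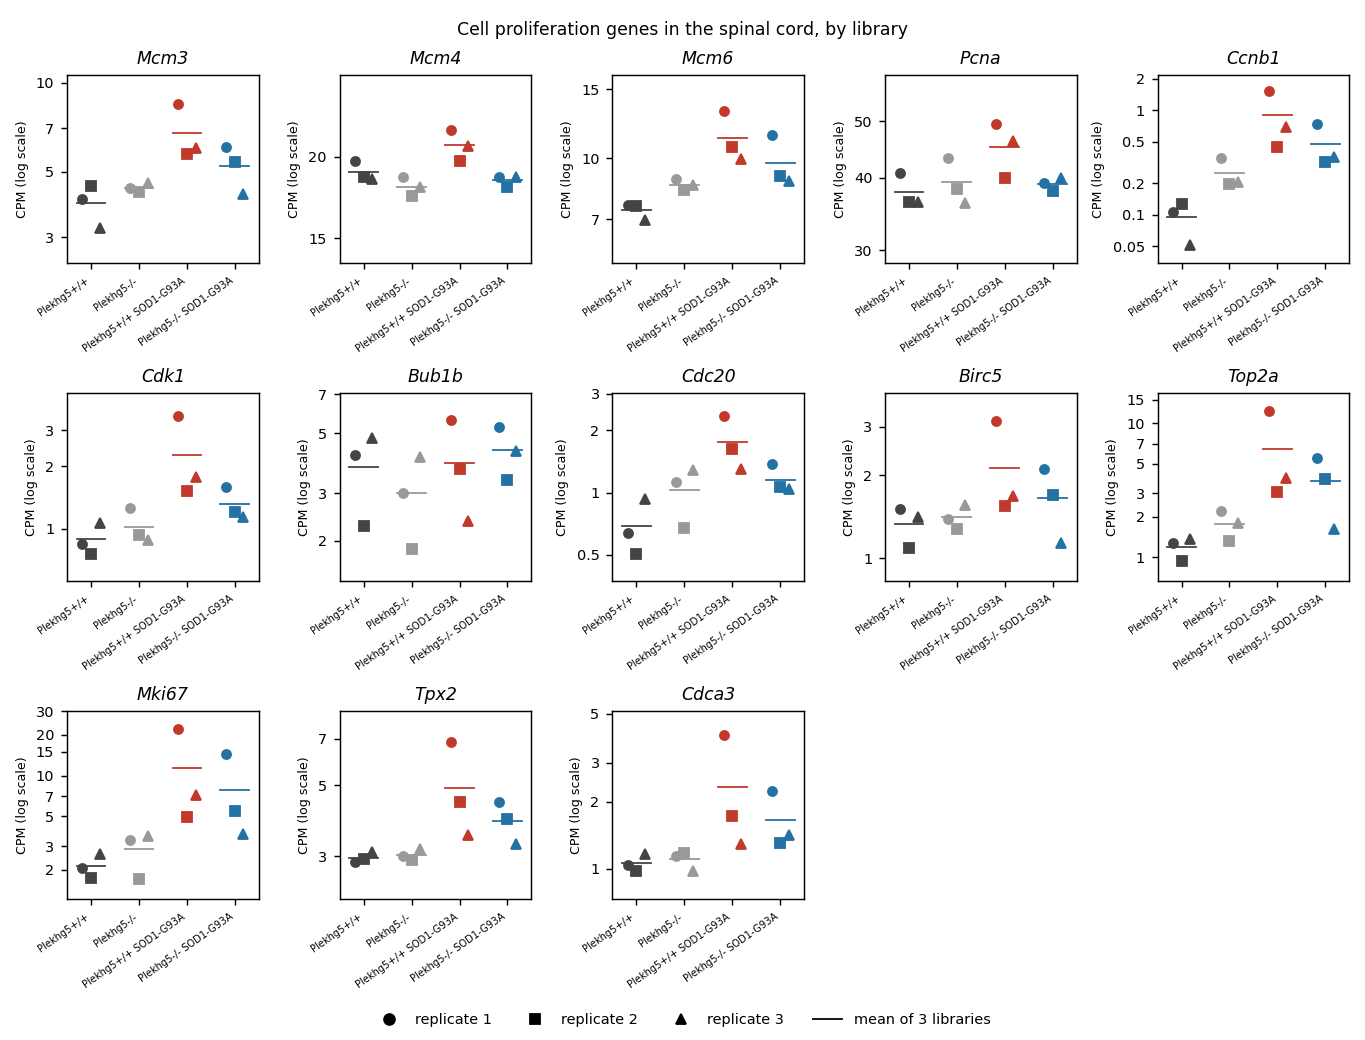
Level of 13 of the 41 genes in CPM on a log scale, with a point for each of the 12 libraries, marked by replicate number, and a line at the mean of each genotype. The first Plekhg5+/+ SOD1-G93A library is the highest point in each panel.

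Per kilobase of exon, levels in Plekhg5+/+ mice ran from 30 CPM for Pcna to 0.0408 CPM for Ccnb1. Pcna was followed by Rrm1 with 7.01 and Mcm4 with 5.28 CPM per kilobase, and the levels of the mitotic genes were all lower than those of Mcm5, the lowest of the licensing genes with 1.04. Values per library are given in CPM, in the order of the replicate numbers, and gene positions are those of the count table (GRCm38.p6).

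The MCM proteins form the ring-shaped helicase that opens DNA for replication. In this group 2 of 6 genes rose with the transgene, and the median log2 fold change was 0.42. Mcm6 (chr1:128331575-128359705) had 7.60, 7.55 and 6.98 CPM in Plekhg5+/+, 8.87, 8.32 and 8.53 in Plekhg5-/-, 13.2, 10.7 and 9.96 in Plekhg5+/+ SOD1-G93A, and 11.5, 8.99 and 8.74 in Plekhg5-/- SOD1-G93A libraries. The 3 Plekhg5+/+ libraries were the lowest of the 12, with no overlap with any other genotype. Its log2 fold change with the transgene was 0.61 (edgeR's quasi-likelihood test, standard error 0.127, adjusted p = 0.0273).

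Mcm3 (chr1:20802966-20820312), a further subunit of the ring, had 4.03, 4.47 and 3.22 CPM in Plekhg5+/+, 4.39, 4.25 and 4.57 in Plekhg5-/-, 8.45, 5.74 and 6 in Plekhg5+/+ SOD1-G93A and 6.04, 5.40 and 4.20 in Plekhg5-/- SOD1-G93A libraries. Plekhg5+/+ SOD1-G93A libraries did not overlap with those of either genotype without the transgene, whereas the third Plekhg5-/- SOD1-G93A library lay among them. The log2 fold change was 0.79 (edgeR's quasi-likelihood test, standard error 0.18, adjusted p = 0.0414). Without the first Plekhg5+/+ SOD1-G93A library it was 0.59, and the adjusted p-value of Mcm3 ranged up to 0.167 over the omissions of a library.

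Mcm4 (chr16:15623897-15637400), the licensing gene with the highest level per kilobase, had a small estimate. It had 19.7, 18.6 and 18.5 CPM in Plekhg5+/+, 18.6, 17.4 and 18 in Plekhg5-/-, 22.0, 19.7 and 20.8 in Plekhg5+/+ SOD1-G93A and 18.6, 18 and 18.6 in Plekhg5-/- SOD1-G93A libraries. The Plekhg5+/+ SOD1-G93A values were at or above the highest of the others. Its log2 fold change was 0.14 (standard error 0.0657) and did not pass the test (adjusted p = 0.288, edgeR's quasi-likelihood test). Mcm2, Mcm5 and Mcm7 had log2 fold changes of 0.40, 0.45 and 0.16 and did not pass it either.

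Of the genes for the replication fork and nucleotide supply, 0 of 5 were called, and 3 (Pcna, Rrm2 and Tk1) were higher at an unadjusted p-value under 0.05. Pcna (chr2:132249286-132253180), the sliding clamp of DNA polymerases, had 40.7, 36.3 and 36.3 CPM in Plekhg5+/+, 43.3, 38.3 and 36.2 in Plekhg5-/-, 49.4, 40 and 46.3 in Plekhg5+/+ SOD1-G93A and 39.2, 37.9 and 39.9 in Plekhg5-/- SOD1-G93A libraries. The second Plekhg5+/+ SOD1-G93A library lay below the first Plekhg5+/+ library, so the groups overlapped. Reads of Pcna are shared with its processed copy Pcna-ps2, which had 287.5 to 418 counts per library beside 1148.5 to 1590.83 for Pcna, and the split of reads between the copies is uncertain. Tk1 and Rrm2, thymidine kinase and the regulated subunit of ribonucleotide reductase, had larger estimates. Tk1 had 0.710, 0.519 and 0.505 CPM in Plekhg5+/+ and 1.79, 0.825 and 1.29 in Plekhg5+/+ SOD1-G93A libraries, a log2 fold change of 1.21 (standard error 0.323). Rrm2 had 1.82, 1.94 and 1.41 CPM in Plekhg5+/+ and 6.77, 2.48 and 2.44 in Plekhg5+/+ SOD1-G93A libraries, a log2 fold change of 1.17 (standard error 0.354). The libraries did not overlap in either gene. Rrm1, the constant subunit of the reductase, and Tyms, thymidylate synthase, had log2 fold changes of 0.15 and 0.20.

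Among the mitotic cyclins and kinases, 2 of 9 genes rose and the median log2 fold change was 1.15. Ccnb1 (chr13:100778739-100786486) encodes cyclin B1, the main partner of Cdk1 at the entry into mitosis. It had 0.106, 0.126 and 0.0511 CPM in Plekhg5+/+, 0.349, 0.198 and 0.204 in Plekhg5-/-, 1.54, 0.440 and 0.697 in Plekhg5+/+ SOD1-G93A and 0.741, 0.321 and 0.356 in Plekhg5-/- SOD1-G93A libraries. The Plekhg5+/+ libraries lay below all others, and the Plekhg5+/+ SOD1-G93A libraries above those of both genotypes without the transgene. The log2 fold change of 3.10 (edgeR's quasi-likelihood test, standard error 0.576, adjusted p = 0.0198) was the largest of the 41. Ccnb1 was tested only because of its level in SOD1-G93A libraries, so the estimate and its call are given as a description. The estimate rests on 3.67, 4 and 1.67 counts in the Plekhg5+/+ libraries and 49.5, 13.33 and 23.25 counts in the Plekhg5+/+ SOD1-G93A libraries. Counts of Ccnb1 were not whole numbers in 11 of the 12 libraries, since part of its reads was divided with other matching genes, and its level is uncertain to this extent. The copy Ccnb1-ps had at most 3.67 counts. Ccnb1 remained called without the first Plekhg5+/+ SOD1-G93A library, with a log2 fold change of 2.43, and lost its call in 2 of the 12 omissions of a library.

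Cdk1 (chr10:69335146-69352912), the kinase that cyclin B1 activates, had 0.841, 0.755 and 1.07 CPM in Plekhg5+/+, 1.26, 0.934 and 0.883 in Plekhg5-/-, 3.51, 1.52 and 1.77 in Plekhg5+/+ SOD1-G93A and 1.6, 1.21 and 1.14 in Plekhg5-/- SOD1-G93A libraries. The Plekhg5+/+ SOD1-G93A libraries lay above those of both genotypes without the transgene. The log2 fold change was 1.35 (edgeR's quasi-likelihood test, standard error 0.306, adjusted p = 0.0404), and it lost its call in 8 of the 12 omissions of a library, with a log2 fold change of 0.89 without the first Plekhg5+/+ SOD1-G93A library.

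Bub1b (chr2:118598202-118641592), a kinase-like protein of the spindle checkpoint, differed from the other mitotic genes in its spread. Its levels were 4.15, 2.27 and 4.81 CPM in Plekhg5+/+, 3.01, 1.87 and 4.10 in Plekhg5-/-, 5.59, 3.70 and 2.37 in Plekhg5+/+ SOD1-G93A and 5.30, 3.37 and 4.30 in Plekhg5-/- SOD1-G93A libraries. High and low libraries occurred in each genotype, and the groups overlapped. The log2 fold change was 0.05 (standard error 0.355), and it was −0.31 without the first Plekhg5+/+ SOD1-G93A library and −0.21 without the second Plekhg5+/+ library. Of the remaining genes, Bub1, a checkpoint kinase, Melk and Ccna2, the cyclin of the S and G2 phases, were higher at an unadjusted p-value under 0.05, with log2 fold changes of 1.63, 1.23 and 1.04. Ccnb2, the second B-type cyclin, had 1.15, and the mitotic kinases Plk1 and Aurka had 0.59 and 0.12.

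Cdc20 (chr4:118432901-118437343) was the called gene of the 3 that act in protein destruction. Its protein activates the anaphase-promoting complex. It had 0.638, 0.504 and 0.934 CPM in Plekhg5+/+, 1.13, 0.678 and 1.28 in Plekhg5-/-, 2.35, 1.63 and 1.30 in Plekhg5+/+ SOD1-G93A and 1.37, 1.06 and 1.04 in Plekhg5-/- SOD1-G93A libraries. Plekhg5+/+ SOD1-G93A and Plekhg5+/+ libraries did not overlap, and the Plekhg5-/- libraries reached from the Plekhg5+/+ range to just below the lowest Plekhg5+/+ SOD1-G93A library. With the transgene the log2 fold change was 1.37 (edgeR's quasi-likelihood test, standard error 0.299, adjusted p = 0.0351), and it lost its call in 5 of the 12 omissions of a library. Ube2c, the ubiquitin-conjugating enzyme of the same complex, had a log2 fold change of 2.11. Cdca3 (chr6:124829530-124833701), an adaptor for the destruction of a mitotic inhibitor, had 1.04, 0.976 and 1.16 CPM in Plekhg5+/+, 1.14, 1.18 and 0.978 in Plekhg5-/-, 4.01, 1.72 and 1.29 in Plekhg5+/+ SOD1-G93A and 2.25, 1.31 and 1.42 in Plekhg5-/- SOD1-G93A libraries. All 6 SOD1-G93A libraries were above all 6 others, and the log2 fold change was 1.14 (standard error 0.362) with an adjusted p-value of 0.117 (edgeR's quasi-likelihood test).

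In the chromosomal passenger complex, which corrects the attachment of chromosomes, 0 of 3 genes were called. Birc5 (survivin, chr11:117849237-117855743) had 1.51, 1.09 and 1.41 CPM in Plekhg5+/+, 1.39, 1.28 and 1.56 in Plekhg5-/-, 3.15, 1.55 and 1.68 in Plekhg5+/+ SOD1-G93A and 2.11, 1.70 and 1.14 in Plekhg5-/- SOD1-G93A libraries. The second Plekhg5+/+ SOD1-G93A library was barely above the highest Plekhg5+/+ library. Its log2 fold change was 0.68 (standard error 0.289), that of Cdca8 (borealin) 0.67, and that of Aurkb, the kinase of the complex, 2.06 (standard error 0.63).

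The 6 genes of kinetochores and chromosomes had the highest median of the 7 groups, a log2 fold change of 1.45. Each of the 6 had a p-value under 0.05 before adjustment and no overlap between Plekhg5+/+ SOD1-G93A and Plekhg5+/+ libraries, but 0 were called. Mki67 (chr7:135689784-135716450), which encodes the proliferation antigen Ki-67 that coats mitotic chromosomes, had 2.07, 1.75 and 2.62 CPM in Plekhg5+/+, 3.32, 1.72 and 3.58 in Plekhg5-/-, 22.2, 4.92 and 7.17 in Plekhg5+/+ SOD1-G93A and 14.4, 5.42 and 3.70 in Plekhg5-/- SOD1-G93A libraries. All 6 libraries with the transgene were above all 6 without it, and in both SOD1-G93A genotypes the first library stood far above the other two. With the transgene the log2 fold change was 2.4 (edgeR's quasi-likelihood test, standard error 0.659, adjusted p = 0.0898) and 1.48 without the first Plekhg5+/+ SOD1-G93A library.

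Top2a (chr11:98992947-99024199), the topoisomerase that untangles sister chromatids, had 1.28, 0.944 and 1.38 CPM in Plekhg5+/+, 2.22, 1.33 and 1.80 in Plekhg5-/-, 12.4, 3.07 and 3.93 in Plekhg5+/+ SOD1-G93A and 5.55, 3.86 and 1.63 in Plekhg5-/- SOD1-G93A libraries. The third Plekhg5-/- SOD1-G93A library lay within the range of the Plekhg5-/- mice. The log2 fold change was 2.43 (edgeR's quasi-likelihood test, standard error 0.57, adjusted p = 0.0518), and it became called in 4 of the 12 omissions of a library. Cenpf, Esco2, Spc25 and Cenpe, which build kinetochores or join sister chromatids, had log2 fold changes of 1.54, 1.36, 1.30 and 0.88.

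Of the 9 genes of the spindle and of cytokinesis, 7 were higher at an unadjusted p-value under 0.05 and 0 were called. Tpx2 (chr2:152847964-152895321), which activates Aurora A on the spindle, had the highest level per kilobase of them, with 2.87, 2.93 and 3.09 CPM in Plekhg5+/+, 3.01, 2.92 and 3.16 in Plekhg5-/-, 6.83, 4.42 and 3.48 in Plekhg5+/+ SOD1-G93A and 4.44, 3.92 and 3.27 in Plekhg5-/- SOD1-G93A libraries. The 6 mice without the transgene were within a narrow range, and the SOD1-G93A libraries were all above it. The log2 fold change was 0.73 (edgeR's quasi-likelihood test, standard error 0.208, adjusted p = 0.0874). Among the kinesins, motors that move along microtubules, Kif2c had a log2 fold change of 2.01, Kif20a of 1.19, Kif11 of 0.91, Kif23 of 0.67 and Kif4 of 0.39. The microtubule-binding proteins Nusap1, Hmmr and Prc1 had 1.89, 1.27 and 1.06.

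**Figure D3:**
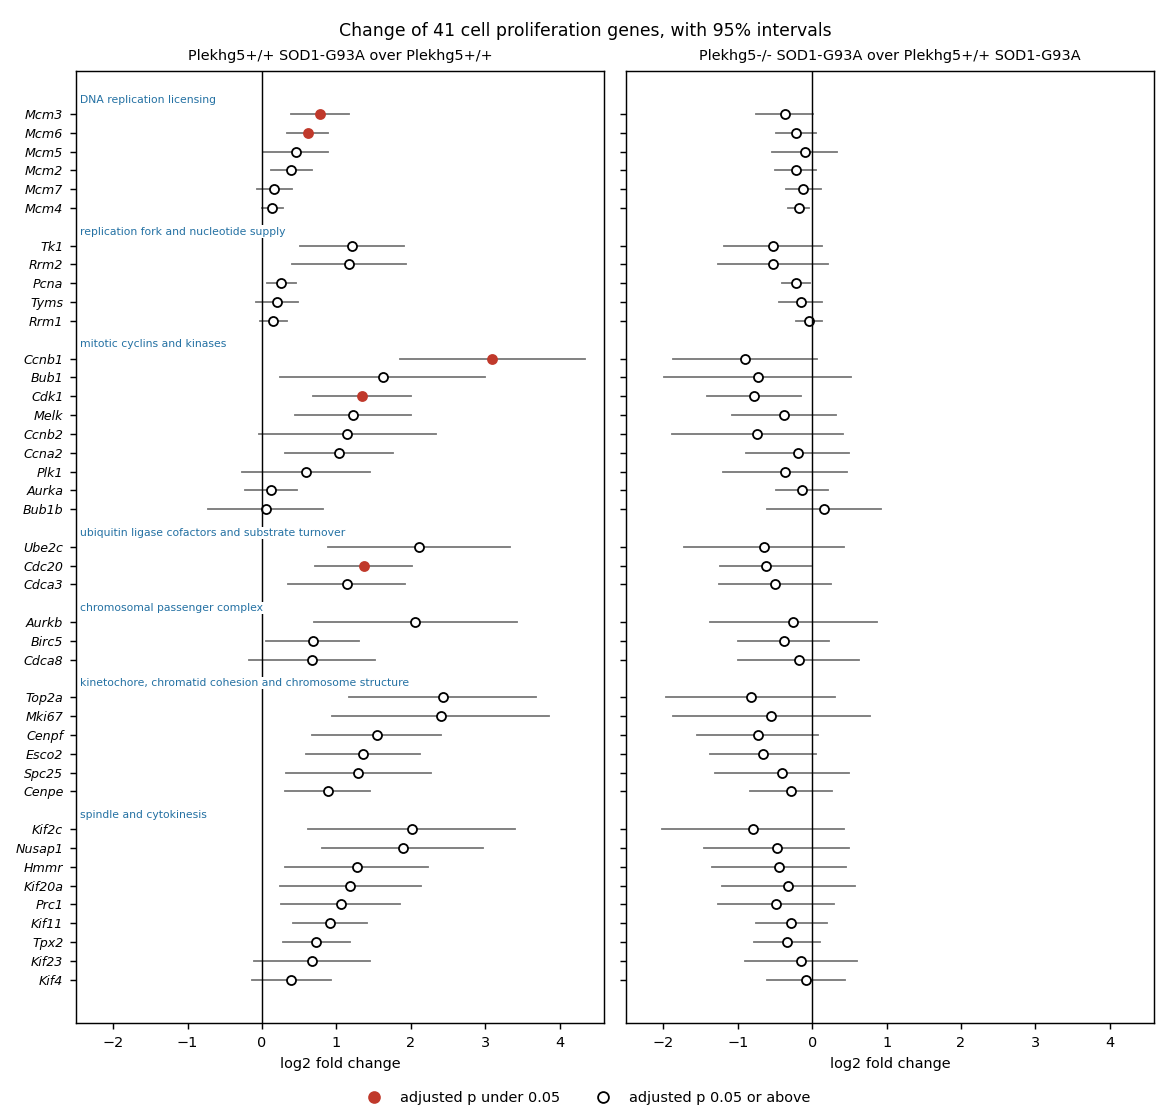
Log2 fold changes of the 41 genes, ordered by role, with 95% intervals from the fits, for the transgene with Plekhg5 intact (left) and for Plekhg5 loss in mice with the transgene (right). Filled points mark the 5 genes with an adjusted p-value under 0.05 on the left, and no point on the right is filled.

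The second comparison asks whether the level of these genes depends on Plekhg5 in mice with the transgene. In Plekhg5-/- SOD1-G93A against Plekhg5+/+ SOD1-G93A mice, 40 of the 41 genes had a negative and 1 (Bub1b) a positive estimate, with a median log2 fold change of −0.37, and 0 of 41 were called, beside 0.0347% of all genes tested (quasi-likelihood test of edgeR). At an unadjusted p-value under 0.05, 4 genes (Mcm4, Cdk1, Pcna and Cdc20) were lower, beside 5.05% of all genes tested. DESeq2 called 0 of the 41 as well. In Mcm4, Pcna and Esco2 each Plekhg5-/- SOD1-G93A library lay below each Plekhg5+/+ SOD1-G93A library, 3 of 41, beside 10% of all genes tested. The direction of the median rested on a single library, as it was 0.02 without the first Plekhg5+/+ SOD1-G93A library and −0.58 without the first Plekhg5-/- SOD1-G93A library. This comparison shares its Plekhg5+/+ SOD1-G93A libraries with the first, so the estimates of both move with these 3 mice.

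For the genes named above, the log2 fold change with Plekhg5 loss was −0.91 in Ccnb1 (95% interval −1.87 to 0.06), −0.78 in Cdk1 (−1.42 to −0.15), −0.63 in Cdc20 (−1.24 to −0.02), −0.37 in Mcm3 (−0.75 to 0.01) and −0.21 in Mcm6 (−0.48 to 0.06). It was −0.82 in Top2a (−1.96 to 0.31) and −0.55 in Mki67 (−1.88 to 0.77). These intervals included no change, as did those of Ccnb1, Mcm3 and Mcm6. Intervals were narrow in the abundant genes, with −0.18 in Mcm4 (−0.32 to −0.04) and −0.21 in Pcna (−0.40 to −0.02). Without the first Plekhg5+/+ SOD1-G93A library the estimates were smaller, with −0.24 in Ccnb1, −0.32 in Cdk1, −0.37 in Cdc20 and −0.17 in Mcm3. In that fit Mcm4 had −0.14 and Pcna −0.15. The smallest adjusted p-value of the 41 was 0.517 (edgeR's quasi-likelihood test).

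Without the transgene, and against the same Plekhg5+/+ libraries as in the first comparison, loss of Plekhg5 gave 33 positive and 8 negative estimates with a median log2 fold change of 0.15, and 0 of the 41 genes were called, beside 0.0298% of all genes tested (edgeR's quasi-likelihood test). Before adjustment 0 of the 41 had a p-value under 0.05, and DESeq2 called 0. Over all genes tested, 510 were higher and 563 lower at this level. Ccnb1 had the largest estimate, 1.29 (standard error 0.686), on the low counts given above.

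In mice without Plekhg5, the transgene gave 38 positive and 3 negative estimates with a median log2 fold change of 0.46, and 0 of 41 genes were called, beside 0.00496% of all genes tested (edgeR's quasi-likelihood test). DESeq2 called 0 of them. At an unadjusted p-value under 0.05, 4 of the 41 (Kif23, Tk1, Ccna2 and Mki67) were higher, beside 3.27% of all genes. No overlap between Plekhg5-/- SOD1-G93A and Plekhg5-/- libraries was found in 8 of 41 genes (Rrm2, Tk1, Ube2c, Cdca3, Esco2, Mki67, Kif23 and Tpx2), beside 7.26% of all genes. For Mki67 the estimate was 1.43 on the log2 scale (standard error 0.641), and Top2a, Ccnb1 and Ube2c had 1.03, 0.91 and 1.22. Without the first Plekhg5-/- SOD1-G93A library, 0 of the 41 were higher at an unadjusted p-value under 0.05, 33 had a positive estimate and the median was 0.24. Without the second Plekhg5-/- library, 0 of the 41 were also higher at this level, 33 had a positive estimate and the median was 0.33. Without the first Plekhg5+/+ SOD1-G93A library, which is outside of this comparison, 13 were higher before adjustment and the median was 0.46.

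Averaged over both Plekhg5 genotypes, with 6 mice on each side, the transgene gave positive estimates in 41 of 41 genes and a median log2 fold change of 0.77. Ccnb1 was called, with a log2 fold change of 2.00 (edgeR's quasi-likelihood test, standard error 0.395, adjusted p = 0.0355), which makes 1 of 41 genes, beside 1.22% of all genes tested. DESeq2 called 16 of the 41, beside 3.77% of the genes it tested, and 3 were called with no filter on low counts, beside 0.753%. Ccnb1 was tested only because of its level in SOD1-G93A libraries, and of the 36 genes that reached the filter without the transgene 0 were called. At an unadjusted p-value under 0.05, 30 of the 41 were higher, beside 9.39% of all genes. Mcm6, Tk1 and Top2a were next, with adjusted p-values of 0.0521, 0.0593 and 0.0625 (same test). With a library left out the number called ran from 0 to 12, being 0 without any of the 3 Plekhg5+/+ libraries, without Plekhg5-/- replicate 2 or 3 or without the first or second Plekhg5-/- SOD1-G93A library. Where the number was 0, the share of all genes called was 0.0488% to 0.494%. The number was 2 without the first Plekhg5+/+ SOD1-G93A library, 12 without the second and 8 without the third, beside 1.5%, 2.73% and 2.43%. It was 3 without the third Plekhg5-/- SOD1-G93A library, beside 0.658%. With both of the first SOD1-G93A libraries left out it was 1, beside 0.874%, and this gene was Mki67. The median was 0.54 without the first Plekhg5+/+ SOD1-G93A library, 0.70 without the first Plekhg5-/- SOD1-G93A library and 0.40 without both.

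The difference between the transgene effects with and without Plekhg5 was tested as an interaction. It was negative in 39 of the 41 genes, with a median of −0.54 on the log2 scale, and 0 genes were called, beside 0% of all genes tested (edgeR's quasi-likelihood test). Before adjustment 5 of the 41 had a p-value under 0.05 (Cdc20, Ccnb1, Mcm6, Cdk1 and Pcna), and DESeq2 called 0 of the 41. For Mki67 the difference was −0.97 (standard error 0.911). The median rested on the first Plekhg5+/+ SOD1-G93A library, without which it was −0.07 with 13 positive estimates. It was −0.67 without the first Plekhg5-/- SOD1-G93A library and −0.26 without both, and 0 of the 41 were called in each case (edgeR's quasi-likelihood test). Over all genes, 779 had a higher and 1045 a lower interaction at an unadjusted p-value under 0.05.

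Y-linked transcripts and marker transcripts of other cell types also differed between libraries. Relative to the mean of Plekhg5+/+ mice, the 41 genes had a median log2 ratio of 1.59, 0.52 and 0.52 in the Plekhg5+/+ SOD1-G93A, 0.92, 0.47 and 0.22 in the Plekhg5-/- SOD1-G93A and 0.20, 0.03 and 0.18 in the Plekhg5-/- libraries. In libraries with Y-linked transcripts it was 1.59 and 0.52 in Plekhg5+/+ SOD1-G93A against 0.92 in Plekhg5-/- SOD1-G93A, and without such transcripts 0.52 against 0.47 and 0.22. These groups hold 1 or 2 libraries, and no test was made within them. With Y-linked transcripts as a covariate, 17 of the 41 genes were called for the transgene with Plekhg5 intact and 17 averaged over both genotypes, beside 3.04% and 2.04% of all genes tested. With this covariate, 0 of the 41 were called for Plekhg5 loss with the transgene, and the median log2 fold change was −0.17.

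Microglial markers moved with the same groups. Of 12 markers, 11 rose in Plekhg5+/+ SOD1-G93A mice, beside 2.47% of all genes tested that were called, and the median log2 fold change was 1.23. Among them were Itgam (1.06), Csf1r (0.89) and Cx3cr1 (1.13), and Tmem119 did not pass the test. The summed level of the 12 was 609 to 714 CPM in Plekhg5+/+, 672 to 928 in Plekhg5-/-, 2272, 1184 and 1251 in Plekhg5+/+ SOD1-G93A and 969, 937 and 876 in Plekhg5-/- SOD1-G93A libraries. The summed level of the proliferation genes was 214.5, 181.6 and 169.2 CPM in the Plekhg5-/- SOD1-G93A libraries, in the same order as the microglial sum. Mki67 alone had a wider spread, with 14.4, 5.42 and 3.70 CPM in these libraries. With Plekhg5 loss in SOD1-G93A mice, 12 of the 12 microglial markers had negative estimates with a median log2 fold change of −0.75. At an unadjusted p-value under 0.05, 11 were lower, beside 5.05% of all genes tested, and 0 were called (edgeR's quasi-likelihood test). Gfap and Vim, markers of reactive astrocytes, rose among 8 astrocyte markers, with log2 fold changes of 1.23 and 1.31. None of the 9 markers of oligodendrocyte progenitors was called, and their summed level was 732 to 846 CPM in all 12 libraries.

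Markers of granulocytes and their marrow precursors were not called (0 of 9) but were uneven between mice. Their summed level was 26.3, 15.4 and 71.5 CPM in Plekhg5+/+, 34.6, 31.7 and 80.8 in Plekhg5-/-, 153.5, 46.2 and 123.4 in Plekhg5+/+ SOD1-G93A and 263.3, 39.6 and 23.7 in Plekhg5-/- SOD1-G93A libraries. Elane, made by dividing precursors of neutrophils, had 2.08, 0.396 and 1.32 CPM in Plekhg5+/+ SOD1-G93A and 3.11, 0.486 and 0.207 in Plekhg5-/- SOD1-G93A libraries, against 0.203 to 0.398 in Plekhg5+/+. Replicate 1 had the highest sum of these markers and the highest Mki67 level of each SOD1-G93A genotype. The other libraries did not all follow this order. Plekhg5+/+ SOD1-G93A replicates 2 and 3, with 46.2 and 123.4 CPM, each had a median log2 ratio of 0.52 for the proliferation genes. This median was 0.04 and 0.18 in Plekhg5+/+ and Plekhg5-/- replicates 3, with 71.5 and 80.8 CPM. In Plekhg5-/- SOD1-G93A replicates 2 and 3, with 39.6 and 23.7 CPM, the order was the same, with medians of 0.475 and 0.22. None of the 9 was at 0 in any library. Of the erythroid markers 0 of 7 tested were called, and Klf1, the erythroid transcription factor, had 1.46 CPM in the first Plekhg5+/+ SOD1-G93A and 0.910 in the first Plekhg5-/- SOD1-G93A library, beside at most 0.705 in the other 10. Among markers of B cells, Cd79b rose (1 of 4 tested, log2 fold change 1.84), and 0 of 5 T cell markers tested were called, although Lck rose when both genotypes were averaged (0.91). In mice without Plekhg5, all 5 T cell markers had positive estimates with the transgene, with a median log2 fold change of 2.08. Of these, 4 were higher at an unadjusted p-value under 0.05, beside 3.27% of all genes, and 0 were called (edgeR's quasi-likelihood test). T cell markers had at most 2.63 CPM in any library. Cd3e was at 0 in 3 libraries. With Plekhg5 intact, none of 6 markers of oligodendrocytes, 8 of endothelial cells, 6 of ependymal cells, 6 of motoneurons, 6 of meningeal fibroblasts and 5 of Schwann cells was called for the transgene, and Col1a1 of the meningeal list rose in the average (0.79). In Plekhg5-/- SOD1-G93A mice the 5 Schwann cell markers had higher estimates than in both other groups compared. The median log2 fold change was 1.34 against Plekhg5+/+ SOD1-G93A and 1.96 against Plekhg5-/- mice, and 0 of 5 were called in either. At an unadjusted p-value under 0.05, 3 and 5 were higher (edgeR's quasi-likelihood test), beside 723 and 660 of the 20155 genes tested. In Plekhg5-/- against Plekhg5+/+ mice all 5 had negative estimates, with a median of −0.96. Of these, 3 were lower before adjustment, beside 2.79% of all genes tested. The summed level of the 5 markers was 491.9, 436.6 and 619.8 CPM in Plekhg5-/- SOD1-G93A libraries and 187.5 to 436.7 CPM in the other 9. Endothelial and meningeal markers had positive estimates in 8 of 8 and 6 of 6 genes in both comparisons of Plekhg5-/- SOD1-G93A mice. The medians were 0.47 and 0.71 against Plekhg5+/+ SOD1-G93A and 0.32 and 0.91 against Plekhg5-/- mice, and 0 were called. The part of these cell types in the level of the 41 genes was not tested.

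**Figure D4:**
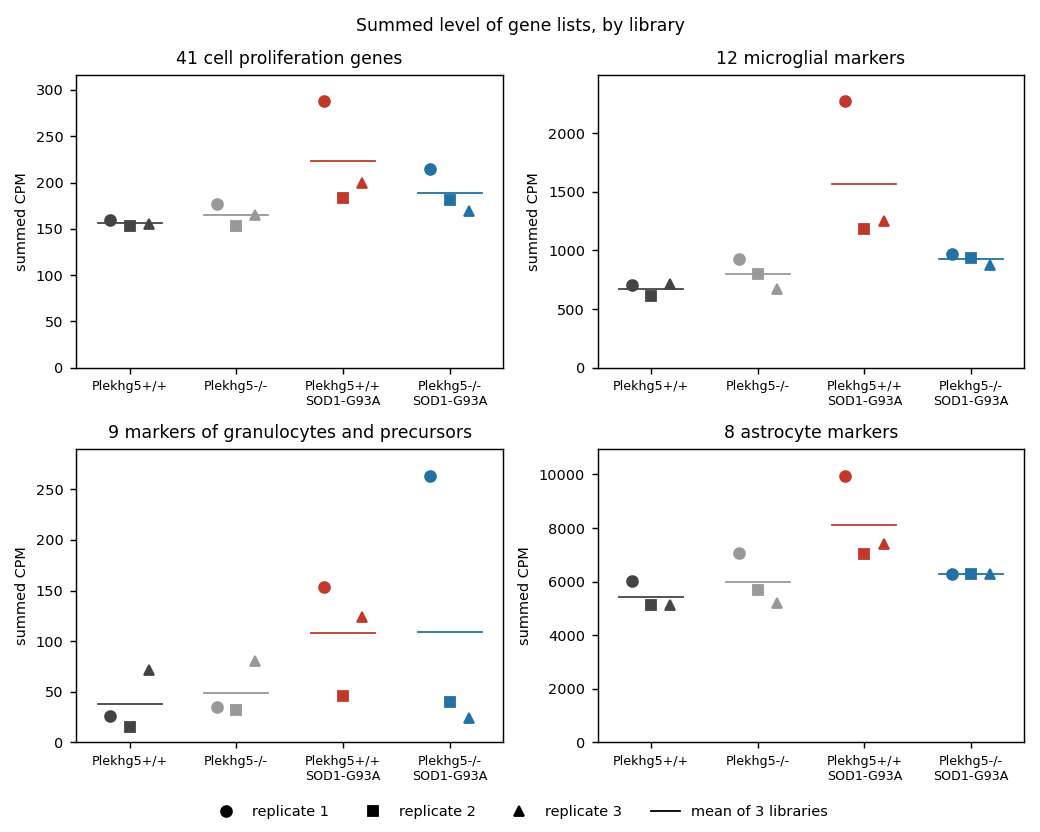
Summed CPM of the 41 proliferation genes and of markers of microglia, granulocytes with their precursors, and astrocytes in the 12 libraries, marked by replicate number, with lines at the mean of each genotype. The first Plekhg5+/+ SOD1-G93A library is the highest for the 41 genes (287.8 CPM), microglia and astrocytes, and the first Plekhg5-/- SOD1-G93A library is the highest for granulocytes (263.3 CPM).

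Further genes of the cell cycle, together with 8 genes of microglial growth signals, were examined in 5 lists, of which 105 genes were tested. With the transgene and Plekhg5 intact, 10 of the 105 rose and 0 fell, with a median log2 fold change of 0.40. Of these 10, 4 were genes of microglial growth signals and not of the cell cycle. Over all genes tested, 2.47% were called and 10.6% were higher at an unadjusted p-value under 0.05. Of 39 other mitotic genes, 5 rose and 18 were higher at an unadjusted p-value under 0.05. Those with small p-values included Ckap2l (1.63), Iqgap3 (2.13) and Pbk (2.32), the last a mitotic kinase. Kif18b, a kinesin of the mitotic spindle, had 0.116, 0.0629 and 0.0919 CPM in Plekhg5+/+ and 1.52, 0.363 and 0.510 in Plekhg5+/+ SOD1-G93A libraries. It lay below the 0.306 CPM of the filter in each of the 6 libraries without the transgene and was tested only because of its level in SOD1-G93A libraries, so its log2 fold change of 3.09 (standard error 0.655) is given as a description. Of 30 other replication genes 0 were called and 12 were higher at an unadjusted p-value under 0.05. Among 22 regulators of the step from G1 to S phase, 1 rose, beside the 2.47% of all genes, namely the kinase gene Cdk2 (log2 fold change 0.79). Cdk6 rose when both genotypes were averaged (0.59). None of 6 inhibitors of cyclin-dependent kinases was called. Of 8 genes of microglial growth signals 4 rose, namely Csf1r (0.89), Spi1 (1.27), Csf1 (0.58) and Csf2rb (1.42). Csf1r is also among the microglial markers above. With Plekhg5 loss in SOD1-G93A mice 0 of the 105 were called, 81 had negative estimates and the median was −0.14.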

How the data were processed

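Poly-A RNA of 12 spinal cords was sequenced from a stranded kit. The authors deposited expected or estimated counts, as a read with several alignments or several overlapping genes added a fraction to each, with strand used. Per the submitters' processing notes and the study's methods, they used bcl2fastq (2.20.0.422), cutadapt (2.4), STAR (2.7.2b) and featureCounts (1.6.4) on GRCm38.p6 with the human SOD1 cDNA added. Counts were rounded to whole numbers, genes with low counts were removed by filterByExpr (20155 of 45906 tested), and edgeR's quasi-likelihood test (4.0.16, R 4.3.3, TMM scaling, robust) was fitted to all 4 genotypes, with Benjamini-Hochberg adjustment over all genes tested and a threshold of 0.05. Log2 CPM used a prior count of 2 and intervals cover 95%. CPM in the text carry no prior count. The scripts were tested on simulated data. Library totals of 30415643 to 38743628 leave Ccnb1 and other rare transcripts with few counts.

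The 41 genes, the gene and marker lists and the tests were chosen with earlier results of these data known. Values per library are given for genes called in any comparison, for the 6 genes with the smallest p-value in each of the first 2 comparisons, for the gene with the highest mean CPM of each role and for Mki67, Top2a and Cdk1. Tk1, Rrm2, Elane and Klf1 were added after their values were seen. Of other lists, at most 4 called genes were named. The alternatives were DESeq2 (1.42.0) with or without shrinkage of fold changes, its size factors, no filter, fits of only 2 genotypes, the replicate number as a block, Y-linked transcripts as a covariate and omission of each library. The labels do not tie mice to litters or preparations. Promoter windows came from RefSeq (GRCm38.p6) by gene symbol.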

Additional observations from a re-analysis of the deposited data

How the results depend on the processing

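The counts of called genes depended on the tool and on single libraries, and the cause was not tested. For the transgene with Plekhg5 intact, averaged, and without Plekhg5, DESeq2 without a prior called 1159, 811 and 45 genes, and with a prior 1190, 821 and 41. For Plekhg5 loss with and without the transgene and for the interaction it called 72, 34 and 95 without and 114, 32 and 112 with a prior. Of the 41 genes it called 15 with Plekhg5 intact and 16 averaged without a prior, and 14 and 16 with it, where the median shrank to 0.25. With no filter, 3 of the 41 were called averaged and 1 gene in the interaction. Fits of only 2 genotypes called 3 genes with Plekhg5 intact (0 of the 41), 11 for Plekhg5 loss with the transgene and 20 for the transgene without Plekhg5. The replicate block gave 11 of the 41 with Plekhg5 intact, beside 3.13% of all genes tested, and averaged 417 genes (2.07%) and 8 of the 41. Whether replicate numbers pair the mice could not be settled with 3 mice in each genotype. Libraries of the same number had correlations of −0.163 to 0.318, and 6 of 12 libraries were closest to their own number. Y-linked transcripts as a covariate gave 17 of the 41 in both, and 412 genes averaged. Without both first SOD1-G93A libraries, chosen after seeing the data, 198 genes and 1 of the 41 were called with Plekhg5 intact and 4 genes without Plekhg5, with medians of 0.51 and, for Plekhg5 loss, −0.16.

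Leaving out each library gave, with Plekhg5 intact, 2 to 771 genes, 0 to 15 of the 41, 18 to 34 at an unadjusted p-value under 0.05, 38 to 41 positive and a median of 0.51 to 1.29. Plekhg5 loss gave 4 to 8 genes and a median of −0.58 to 0.02 with the transgene, and 5 to 59 genes without it. The transgene without Plekhg5 gave 1 to 9 genes, the average 10 to 560 genes and 0 to 12 of the 41, and the interaction 0 to 40 genes. In Plekhg5 loss, the interaction and the transgene without Plekhg5, 0 of the 41 were called throughout. Bub1b reached 0.311 without the third Plekhg5+/+ SOD1-G93A library and turned to −0.21 without the second Plekhg5+/+ library, −0.31 without the first Plekhg5+/+ SOD1-G93A library and −0.31 without both first SOD1-G93A libraries. The size factors of DESeq2 in edgeR changed no call among the 41. Depth limits Ccnb1, which had fewer than 5 counts in each Plekhg5+/+ library.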
